A study of Rattus norvegicus with 20 samples.

Results

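The mitochondrial respiratory chain and ATP synthase were covered by 96 of the 15923 ProbeSets (sets of probes that report 1 transcript each) on the rat array. They were all ProbeSets whose annotated symbol began with *Nduf*, *Uqcr*, *Cox4* to *Cox8* or *Atp5*, or was *Sdha*, *Sdhb*, *Sdhc* or *Sdhd*, a rule on symbols that uses no measured value. The 96 ProbeSets carried 91 annotation entries, of which 7 ProbeSets named several symbols, such as a gene and its like-named copy, which the probes cannot separate. Complex I had 37 ProbeSets, complex II 5, complex III 8, complex IV 19 and complex V 18. The others were 3 ProbeSets of the ATP synthase inhibitor *Atp5if1*, 5 of complex I assembly factors and 1 of a pseudogene. *Ndufa4* and its isoform *Ndufa4l2* were counted with complex IV, where the protein is now placed. Signal was above the limit of expression, a mean log2 signal of 4 over the 20 arrays, for 84 of the 96 and for 7168 of all ProbeSets. Every ProbeSet of complexes I, II and III lay above that limit, as did 13 of 19 in complex IV and 17 of 18 in complex V. The lowest mean above it was 4.79 and the highest below it was 3.65. Single arrays of *Ndufaf5*, *Ndufaf7* and *Atp5if1* (1371230_x_at), whose means lay below it, reached 4.24, 4.59 and 4.32.

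Hepatic mRNA was measured on 1 Affymetrix RAE230A array per rat in 5 groups of 4 male rats aged 10 to 12 weeks, each given corn oil vehicle by gavage 19 hours before the liver was taken. Sprague-Dawley (S-D) is an outbred stock and Long-Evans (*Turku/AB*) (L-E) an inbred strain, and both carry the wild-type aryl hydrocarbon receptor gene *Ahr*. Han/Wistar (*Kuopio*) (H/W) is a closed, random-bred colony that carries a variant *Ahr*, altered in the transactivation domain of the receptor. Line-A and Line-C were bred from crosses of L-E with H/W, and Line-A carries the variant *Ahr* while Line-C carries the wild-type gene. None of the rats received dioxin, so every group was a control group. The values are GC-RMA log2 signals, on which a difference of 1 is a doubling, and p-values are from limma with Benjamini-Hochberg adjustment over all 15923 ProbeSets. Signal levels are compared between groups only within the same ProbeSet. Differences are also ranked across ProbeSets and complexes, and such a ranking is one of array signal and not of transcript amount.

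The respiratory chain passes electrons from NADH and succinate to oxygen and stores the energy as a proton gradient across the inner mitochondrial membrane. Complex I takes electrons from NADH and complex II from succinate, both hand them to coenzyme Q, complex III moves them on to cytochrome c and complex IV delivers them to oxygen, while complex V makes ATP as protons flow back. All members measured here are encoded in the nucleus. In liver this machinery supplies the ATP for glucose, urea and bile acid synthesis.

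The samples carried the markers of liver. All 6 hepatocyte markers were expressed, with a summed level of 17.48 to 17.71 on the log2 scale over the 20 arrays, and none of the 6 muscle markers was. Array medians ran from 3.47 to 3.69, and no 2 arrays were identical. The arrays were scanned on 5 days with 4 chip lots by 2 operators, according to the file headers. The S-D arrays had a scan day, lot and operator of their own. Line-A and Line-C arrays shared 1 day and lot. L-E arrays fell on 2 days that also held H/W arrays, and H/W replicate 4 had a day of its own. In comparisons of S-D with any group, and of either line with L-E or H/W, group and scan day therefore cannot be told apart. H/W replicate 3 stood apart from the other H/W rats. It had the highest difference between the 3′ and 5′ control probes of GAPDH of all 20 arrays (0.81), a measure of RNA quality, against 0.33 to 0.47 in the other H/W arrays, and the highest level over all expressed ProbeSets (0.06).

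Promoters are described for the subunit with 1 symbol and the smallest F-test p in each complex, and those with a match are printed. RefSeq promoters, 250 bases before to 50 bases after the annotated start on assembly GRCr8, were found for 76 of the 84 member genes with 1 symbol. They were searched on both strands for 3 letter patterns of factors known to act at respiratory promoters. GCGCA followed directly by its reverse complement TGCGC is the palindromic pattern of NRF1, CCGGAAG that of ETS factors such as GABP, and AAGATGGC that of YY1, and the last pair can overlap at the letters AAG. A gene was counted if any of its listed promoters held a match. NRF1 letters were present in 5 of 76 member genes (6.58%) and in 0.954% of all 27457 genes. ETS letters were present in 21 (27.6%) against 9.63% of all, and YY1 letters in 17 (22.4%) against 3.62% of all. At least 1 of the 3 was present in 35 member genes (46.1%) and in 13.3% of all genes. By complex, that was 14 of 32 genes of complex I, 3 of 4 of complex II, 4 of 6 of complex III, 3 of 9 of complex IV and 7 of 14 of complex V, and 1 of 5 among tissue isoforms. A match of letters is a description of the window and not evidence of binding.
The promoters of *Atp5po*, *Sdhd* and *Uqcrq*, of complexes V, II and III, are printed 5′ to 3′ on the strand of the gene, with matched letters in capitals. *Atp5po* has 1 NRF1 and 1 YY1 match (chr11:44657434-44657733, minus strand), *Sdhd* has 2 ETS matches on the opposite strand (chr8:59850592-59850891, minus strand) and *Uqcrq* has 1 ETS match (chr10:38089929-38090228, minus strand).
Atp5po: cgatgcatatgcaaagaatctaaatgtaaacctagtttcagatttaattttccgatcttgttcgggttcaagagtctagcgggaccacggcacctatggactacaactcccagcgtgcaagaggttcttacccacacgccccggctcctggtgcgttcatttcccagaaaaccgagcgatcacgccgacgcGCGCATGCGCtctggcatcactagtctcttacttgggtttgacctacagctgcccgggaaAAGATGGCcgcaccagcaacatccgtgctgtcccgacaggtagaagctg
Sdhd: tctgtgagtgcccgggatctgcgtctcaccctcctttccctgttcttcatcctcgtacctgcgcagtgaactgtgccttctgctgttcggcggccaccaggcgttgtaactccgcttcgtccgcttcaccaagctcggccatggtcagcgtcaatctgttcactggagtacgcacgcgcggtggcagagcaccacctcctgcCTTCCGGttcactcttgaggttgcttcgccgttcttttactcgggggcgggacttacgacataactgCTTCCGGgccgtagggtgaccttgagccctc
Uqcrq: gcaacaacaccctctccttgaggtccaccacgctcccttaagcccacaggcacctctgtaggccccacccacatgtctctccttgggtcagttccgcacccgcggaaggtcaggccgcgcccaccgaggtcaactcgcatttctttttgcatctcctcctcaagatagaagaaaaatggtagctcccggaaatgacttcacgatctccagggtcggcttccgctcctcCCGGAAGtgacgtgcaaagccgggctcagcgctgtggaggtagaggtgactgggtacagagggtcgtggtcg
In *Ndufc1* and *Cox7b*, chosen in the same way for complexes I and IV, the window held none of the 3 patterns, so they are not printed.

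To compare the 5 complexes, the signal of each expressed member was centred on its mean over the 20 arrays and averaged over the complex, giving 1 level per rat. Over all 84 expressed members the level was highest in Line-A (mean 0.09 ± 0.03 SD, n = 4) and lowest in H/W (-0.07 ± 0.10) and S-D (-0.06 ± 0.04), with L-E (0.02 ± 0.08) and Line-C (0.02 ± 0.04) between. The same level over all 7168 expressed ProbeSets had group means between -0.01 and 0.02. The levels of the members in the 4 Line-A rats were 0.07, 0.13, 0.08 and 0.10, and those in the 4 S-D rats were -0.11, -0.09, -0.01 and -0.04. The H/W rats gave -0.05, -0.18, 0.05 and -0.12. Every Line-A rat was therefore above every S-D, H/W and Line-C rat, and H/W replicate 3 was the only H/W rat above 0. These are whole-liver samples, in which fewer cells of a type and less RNA per cell cannot be told apart.

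The size of the shift differed among the complexes. Complex II (succinate dehydrogenase) had the widest one. The 4 Line-A rats had complex II levels of 0.17, 0.23, 0.11 and 0.10, the 4 L-E rats 0.06, 0.11, 0.06 and 0.26, and the 4 Line-C rats 0.05, -0.08, 0.06 and 0.08. The H/W rats were at -0.23, -0.22, -0.00 and -0.19, and the S-D rats at -0.20, -0.17, -0.07 and -0.14. All rats of Line-A and L-E thus lay above all those of H/W and S-D for complex II. The level was 0.31 higher in Line-A than in H/W (1.24-fold) and 0.30 higher than in S-D (1.23-fold). The corresponding differences were 0.21 and 0.15 for complex III, 0.21 and 0.16 for complex IV, and 0.16 and 0.16 for complex I, and in each of these 3 complexes Line-A did not overlap H/W or S-D. Complex V had the narrowest, at 0.09 against H/W, where the groups overlapped, and 0.10 against S-D. Complex V was also the complex in which L-E had the highest mean (0.09 ± 0.08 SD, n = 4), above Line-A (0.04 ± 0.02) but overlapping it. These levels carry no test, and the complexes differ in their number of members.

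**Figure D1:**
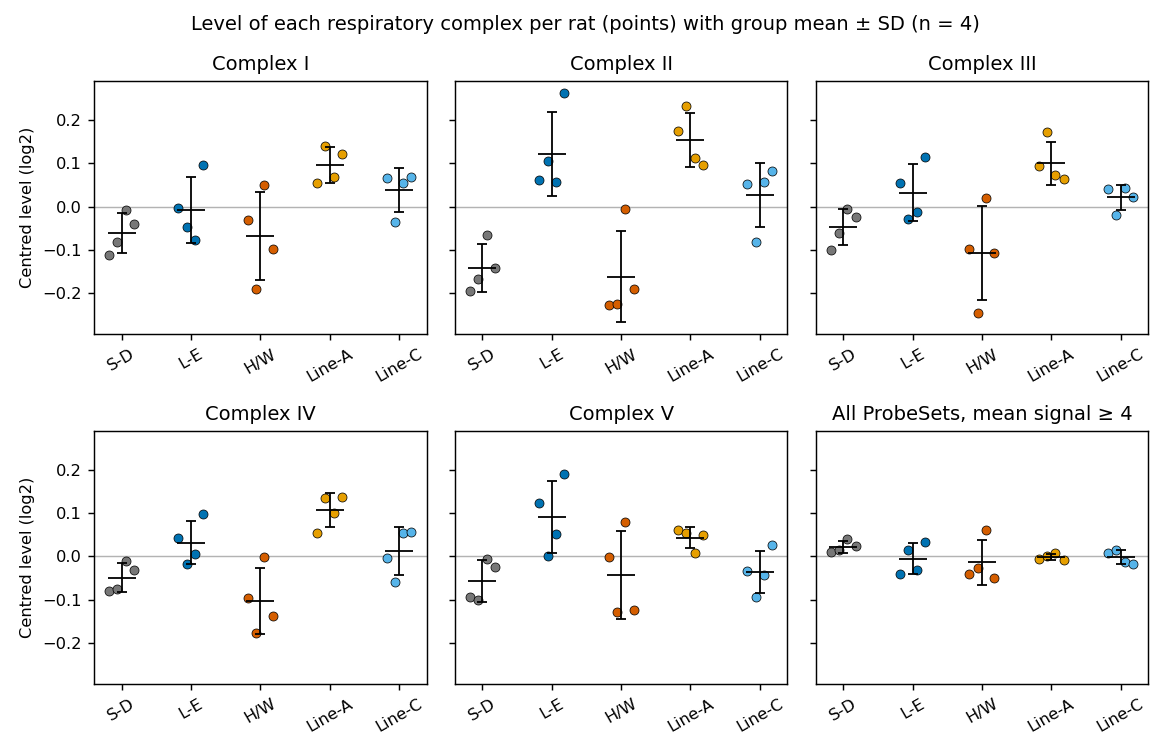
Level of each complex per rat, as the mean over its expressed ProbeSets of the log2 signal centred on the 20-array mean, with all 7168 expressed ProbeSets in the last panel. Points are rats and bars are group mean ± SD (n = 4). Line-A rats sit above H/W and S-D rats in complexes I to IV, the gap is widest in complex II (0.31 and 0.30), and in complex V the L-E mean is the highest (0.09).

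Differences between groups were small relative to the rest of the array. The median range of the 5 group means was 0.29 (1.22-fold) over the 84 expressed members and 0.42 (1.34-fold) over all expressed ProbeSets. Only 1 expressed member (1.19%) had a range of at least 1, against 12.1% of all expressed ProbeSets. The spread among rats of a group was small as well, with a median within-group SD of 0.11 for members and 0.185 for all expressed ProbeSets. The within-group share of the variance (W/T, where 1 means that groups did not differ) had a median of 0.527 for members and 0.616 for all expressed ProbeSets. By complex the median W/T was 0.57 for I, 0.412 for II, 0.368 for III, 0.364 for IV and 0.632 for V. Line-A had the highest group mean in 38 of the 84 expressed members, H/W the lowest in 31 and S-D the lowest in 33. Of all 7168 expressed ProbeSets, Line-A was highest in 1844, H/W lowest in 1237 and S-D lowest in 1686.

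An F-test over the 5 groups at 0.1% FDR called 10 of the 96 members, where 4.6% of all ProbeSets and 9.47% of expressed ones were called, so the members were called at about the rate of other expressed ProbeSets. The 10 were *Ndufa10*/*Ndufa10l1*, *Ndufc1* and *Ndufv3* of complex I, *Sdhd* of complex II, *Uqcrq* of complex III, *Cox7b*, *Cox8a* and *Cox7a2l* of complex IV, and *Atp5po* and *Atp5f1c* of complex V. All 10 belong to the 84 expressed members. Leaving out Line-A replicate 4 reduced the count to 4, leaving out Line-A replicate 1 or 2 or S-D replicate 2, 3 or 4 to 5, and leaving out S-D replicate 1 to 6, while it was 15 without H/W replicate 3. With scan day as a random block it was 3. Line-A had the highest mean in 8 of the 10, the exceptions being *Cox8a*, where L-E and Line-A were nearly equal, and *Cox7a2l*, where S-D was highest.

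**Figure D2:**
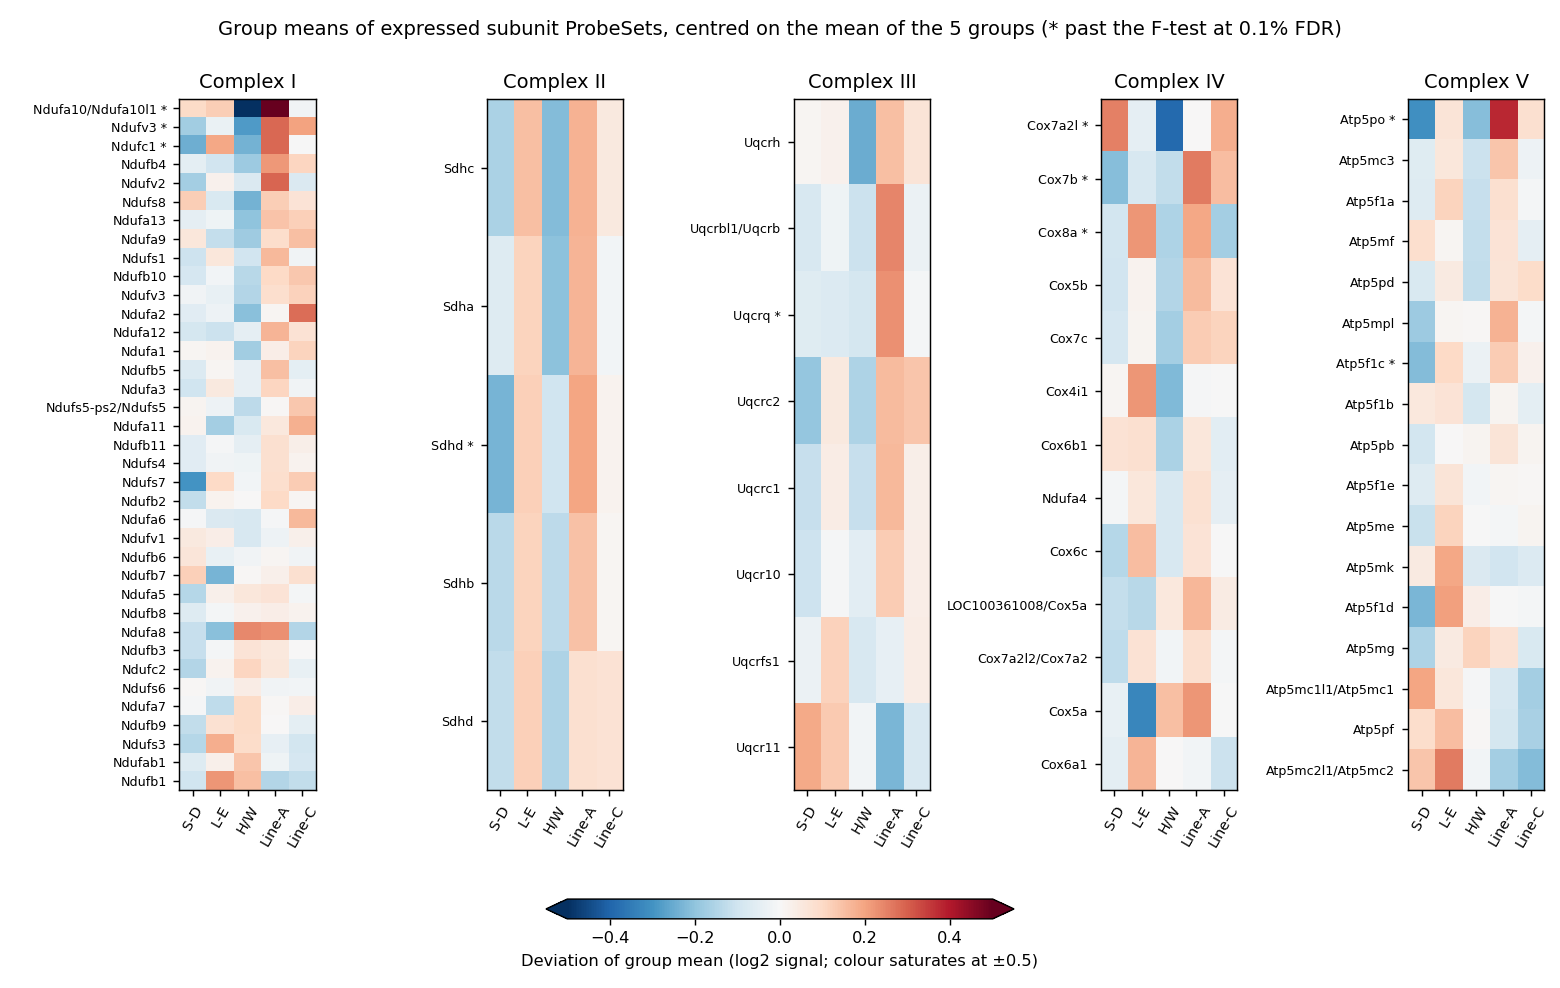
Group means of the expressed subunit ProbeSets of each complex, as deviations in log2 signal from the mean of the 5 groups (red above, blue below, colour saturating at 0.5), with rows ordered by Line-A minus H/W and an asterisk on members past the F-test at 0.1% FDR. The Line-A column is mostly red and the S-D and H/W columns mostly blue, with exceptions such as *Uqcr11* and the *Atp5mc1* and *Atp5mc2* ProbeSets.

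Among the 37 complex I ProbeSets, the shared ProbeSet of *Ndufa10* and *Ndufa10l1* (1389334_at) differed most. *Ndufa10* is an accessory subunit of the membrane arm, and the ProbeSet cannot assign its signal to either symbol. Its signals were 7.61, 6.91, 7.72 and 7.89 for H/W, 8.51, 8.46, 8.51 and 8.64 for L-E, and 8.48, 8.30, 8.63 and 8.58 for S-D. In the lines they were 8.91, 9.21, 8.99 and 9.19 for Line-A, with 8.51, 8.24, 8.45 and 8.34 for Line-C. All H/W rats lay below, and all Line-A rats above, every rat of the other 3 groups. H/W was 1.54 below Line-A on the log2 scale (SE 0.15, 2.91-fold, limma adjusted p = 1.334e-05), and 0.99 below L-E (SE 0.15, adjusted p = 0.001182). Line-A exceeded Line-C by 0.69 (SE 0.15, adjusted p = 0.03181). Both groups that carry the variant *Ahr* therefore lay at opposite ends.

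*Ndufc1*, a small accessory subunit, was at 10.79, 10.49, 10.57 and 10.56 for H/W and at 10.68, 10.47, 10.71 and 10.51 for S-D. It was at 11.11, 10.99, 10.99 and 11.04 for L-E, 11.23, 11.02, 11.11 and 11.14 for Line-A, with 10.81, 10.75, 10.80 and 10.98 for Line-C. L-E and Line-A were above H/W and S-D without overlap, and the Line-C mean lay between. Line-A exceeded S-D by 0.53 (SE 0.07, 1.45-fold, adjusted p = 9.144e-05) and H/W was 0.43 below L-E (SE 0.07, adjusted p = 0.002071). *Ndufv3*, an accessory subunit of the NADH-oxidising module, has 2 ProbeSets, of which 1368566_a_at passed the F-test. On 1368566_a_at the signals were 10.02, 9.96, 9.91 and 10.05 for Line-A, 9.90, 9.92, 9.93 and 9.84 for Line-C, 9.40, 9.45, 9.64 and 9.17 for H/W, 9.55, 9.59, 9.60 and 9.92 for L-E, and 9.47, 9.55, 9.50 and 9.56 for S-D. Both lines were above H/W and S-D there, and H/W was 0.57 below Line-A (SE 0.08, adjusted p = 0.0005516). On 1368567_at, a ProbeSet with a mean of 6.70, the 5 group means ran from 6.56 to 6.82 (F-test adjusted p = 0.3369).

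Other complex I members differed less between groups. *Ndufv2*, which carries an iron-sulfur cluster of the same module, was at 11.40 ± 0.08 (SD, n = 4) in Line-A against 11.03 ± 0.10 in Line-C, a difference of 0.36 (SE 0.08, adjusted p = 0.04006). *Ndufa8* was named after its values were seen. Its mean was higher in both groups with the variant *Ahr*, at 10.12 ± 0.31 in H/W and 10.11 ± 0.07 in Line-A, than in L-E (9.67 ± 0.18), Line-C (9.73 ± 0.06) and S-D (9.76 ± 0.11). The H/W rats of *Ndufa8* overlapped those of L-E, Line-C and S-D, with adjusted p-values of 0.04988, 0.08844 and 0.08789. Line-A exceeded L-E by 0.44 (adjusted p = 0.02057) and S-D by 0.35 (adjusted p = 0.04071). Line-A and Line-C differed by 0.38 (adjusted p = 0.1825), and the *Ahr* coefficient had an adjusted p of 0.2447. The steadiest abundant members were *Ndufs6*, with group means of 11.05 to 11.10, and *Ndufb6*, with 10.41 to 10.51, and their F-test adjusted p-values were 0.7866 and 0.6597. Of the 5 assembly factor ProbeSets, *Ndufaf8* was higher in Line-C (6.79 ± 0.15) than in S-D (6.31 ± 0.18) by 0.48 (SE 0.10, adjusted p = 0.00475). *Ndufaf4* spread from 5.52 to 7.14 among the Line-C rats alone, *Ndufaf3* did not pass the F-test (adjusted p = 0.9199), and *Ndufaf5* and *Ndufaf7* were under the limit of expression.

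**Figure D3:**
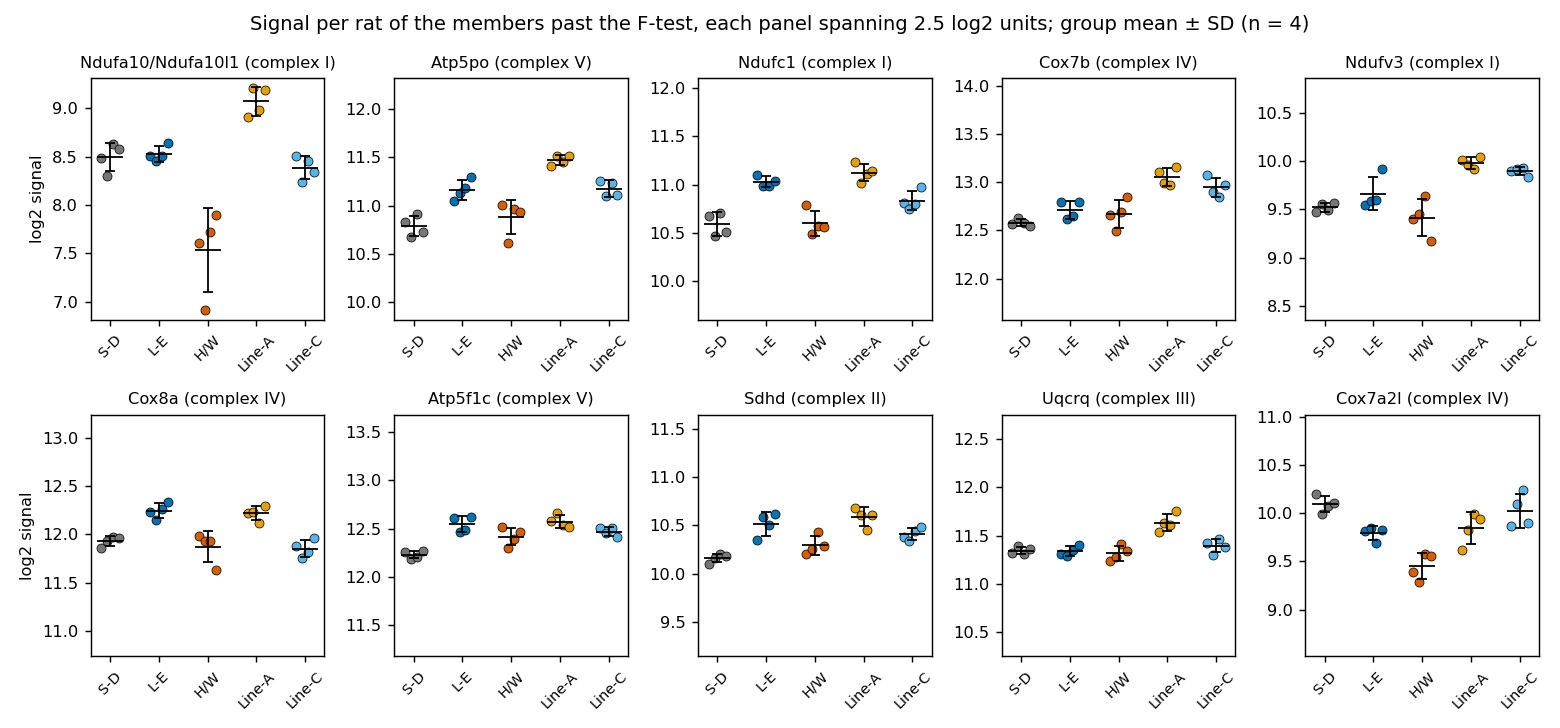
Log2 signal per rat (points) of the 10 members past the F-test at 0.1% FDR, with group mean ± SD (n = 4) and the same span of 2.5 log2 units on every vertical axis. *Ndufa10*/*Ndufa10l1* spans the widest range of group means (1.54), while the other 9 lie between 0.32 and 0.68, with Line-A at or near the top except in *Cox7a2l*.

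Complex II has 4 subunits, which oxidise succinate in the citric acid cycle and feed coenzyme Q, and all of them were measured. The membrane anchor *Sdhd* passed the F-test on ProbeSet 1388294_at, with signals of 10.20, 10.25, 10.43 and 10.28 for H/W and 10.10, 10.16, 10.20 and 10.18 for S-D. The signals were 10.34, 10.59, 10.50 and 10.62 for L-E, 10.68, 10.61, 10.45 and 10.61 for Line-A, with 10.38, 10.34, 10.44 and 10.48 for Line-C. Every S-D rat lay below every L-E, Line-A and Line-C rat. Line-A exceeded S-D by 0.43 (SE 0.06, 1.35-fold, adjusted p = 0.0001962). The other *Sdhd* ProbeSet, 1371296_at, had group means of 9.99 in H/W, 10.02 in S-D and 10.21 to 10.26 in the other groups and was called in no pair (F-test adjusted p = 0.03854). The flavoprotein *Sdha*, which oxidises succinate, was 11.28 ± 0.19 in H/W against 11.66 ± 0.06 in Line-A, 0.37 lower (SE 0.07, adjusted p = 0.005246), and 0.31 below L-E (SE 0.07, adjusted p = 0.02594, and 0.06623 with scan day as a fixed block). H/W was also below Line-A in the iron-sulfur subunit *Sdhb*, by 0.28 (SE 0.07, adjusted p = 0.03043), and in the other anchor *Sdhc*, by 0.39 (SE 0.09, adjusted p = 0.01811), the latter named after its values were seen. In each of the 5 ProbeSets the means of Line-A, L-E and Line-C were above those of H/W and S-D.

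In complex III the F-test called *Uqcrq*, a small subunit of the cytochrome bc1 complex. Its signals were 11.54, 11.63, 11.61 and 11.76 for Line-A, with 11.43, 11.30, 11.46 and 11.39 for Line-C. They were 11.24, 11.28, 11.42 and 11.34 for H/W, 11.31, 11.29, 11.36 and 11.40 for L-E, and 11.32, 11.39, 11.31 and 11.36 for S-D. Line-A lay above all other groups without overlap, while the other 4 groups overlapped. Line-A exceeded H/W by 0.32 (SE 0.05, adjusted p = 0.000684) and Line-C by 0.24 (SE 0.05, adjusted p = 0.01737). The ProbeSet shared by *Uqcrb* and *Uqcrbl1* was also highest in Line-A, with 12.75 ± 0.08 in Line-A and group means of 12.40 to 12.48 elsewhere, and Line-A exceeded Line-C by 0.27 (SE 0.06, adjusted p = 0.02663). The core subunit *Uqcrc2* was high in both lines (10.58 ± 0.02 in Line-A, 10.56 ± 0.11 in Line-C) and low in H/W (10.27 ± 0.16) and S-D (10.23 ± 0.05). *Uqcr11* went the other way and was named after its values were seen. It was 10.35 ± 0.07 in Line-A, 0.42 below S-D (SE 0.08, adjusted p = 0.001316) and 0.36 below L-E (SE 0.08, adjusted p = 0.005197). The narrowest ranges of group means were those of the Rieske protein *Uqcrfs1* (10.93 to 11.12, F-test adjusted p = 0.09122) and *Uqcr10* (11.40 to 11.63, adjusted p = 0.01454), and the latter was still called in 3 pairs.

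Complex IV, cytochrome c oxidase, had 3 members past the F-test, each with a pattern of its own. *Cox7b* was at 13.10, 12.99, 12.97 and 13.16 for Line-A, with 13.07, 12.90, 12.84 and 12.97 for Line-C. It was at 12.66, 12.49, 12.69 and 12.84 for H/W, 12.79, 12.62, 12.65 and 12.80 for L-E, and 12.57, 12.63, 12.57 and 12.54 for S-D. Both lines were above L-E and S-D without overlap, and Line-A exceeded S-D by 0.47 (SE 0.07, 1.39-fold, adjusted p = 0.0001821). *Cox8a*, the isoform found in liver, was at 12.23, 12.15, 12.27 and 12.34 for L-E, 12.22, 12.23, 12.12 and 12.30 for Line-A, 11.99, 11.94, 11.94 and 11.63 for H/W, 11.88, 11.75, 11.82 and 11.96 for Line-C, and 11.86, 11.94, 11.97 and 11.97 for S-D. L-E and Line-A were above the other 3 groups without overlap. L-E exceeded Line-C by 0.39 (SE 0.07, adjusted p = 0.001704) and Line-A exceeded Line-C by 0.37 (SE 0.07, adjusted p = 0.009905). *Cox7a2l*, a homologue of *Cox7a2* known for its place in complexes joined into supercomplexes, was at 9.39, 9.29, 9.57 and 9.55 for H/W, 9.81, 9.85, 9.69 and 9.83 for L-E, 9.61, 9.83, 9.99 and 9.93 for Line-A, 9.87, 10.09, 10.24 and 9.90 for Line-C, and 10.20, 9.99, 10.08 and 10.11 for S-D. H/W was below all other groups and S-D had the highest mean. H/W was 0.64 below S-D (SE 0.09, 1.56-fold, adjusted p = 0.0002829) and Line-A was 0.25 below S-D (SE 0.09, adjusted p = 0.04482).

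*Cox4i1*, the large regulatory subunit that binds ATP, was highest in L-E at 12.64, 12.57, 12.57 and 12.63 and lowest in H/W at 12.09, 12.12, 12.37 and 12.05, with no overlap. The H/W mean was 0.44 below L-E (SE 0.07, 1.36-fold, adjusted p = 0.001013), while Line-A and Line-C had equal means of 12.38. Line-A exceeded H/W in *Cox5b* by 0.31 (SE 0.05, adjusted p = 0.002581) and in *Cox7c* by 0.29 (SE 0.06, adjusted p = 0.006399), both named after their values were seen. The steadiest abundant members were *Ndufa4* (group means 11.51 to 11.67) and the ProbeSet shared by *Cox7a2* and *Cox7a2l2* (11.42 to 11.63). The 6 isoforms known mainly from other tissues were all under the limit of expression, with means over 20 arrays of 2.27 for *Cox4i2*, 1.77 for *Cox6a2*, 2.30 for *Cox6b2*, 1.86 for *Cox7a1*, 3.04 for *Cox8b* and 2.55 for *Ndufa4l2*. Some of their small differences still passed the pairwise test. *Cox4i2*, for example, was called between Line-A and S-D at a difference of 0.08 (SE 0.03, adjusted p = 0.03403).

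In complex V, *Atp5po*, the stalk subunit that confers sensitivity to oligomycin, differed most. It was at 11.41, 11.52, 11.45 and 11.51 for Line-A, 11.26, 11.10, 11.24 and 11.11 for Line-C, and 11.05, 11.13, 11.18 and 11.29 for L-E. It was at 11.01, 10.62, 10.97 and 10.94 for H/W and 10.83, 10.68, 10.91 and 10.73 for S-D. Line-A was above every other rat, and H/W and S-D were below every rat of L-E and Line-C. Line-A exceeded S-D by 0.68 (SE 0.08, 1.61-fold, adjusted p = 2.142e-05) and H/W by 0.59 (SE 0.08, adjusted p = 0.0002094). *Atp5f1c*, the central rotor of the catalytic head, was lowest in S-D at 12.26, 12.19, 12.21 and 12.27, with no overlap with any other group. It was at 12.51, 12.30, 12.39 and 12.46 for H/W, 12.61, 12.46, 12.48 and 12.62 for L-E, 12.58, 12.66, 12.54 and 12.51 for Line-A, with 12.51, 12.45, 12.50 and 12.41 for Line-C. S-D differed from each of the other 4 groups, the smallest difference being 0.19 from H/W (SE 0.05, adjusted p = 0.02515) and the largest 0.34 from Line-A (SE 0.05, adjusted p = 0.0001471).

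The c-ring of complex V, encoded by 3 *Atp5mc* genes, differed in both directions. The ProbeSet of *Atp5mc3* was 13.22 ± 0.07 in Line-A and 12.97 ± 0.09 in H/W, a difference of 0.25 (SE 0.05, adjusted p = 0.006079). The ProbeSet shared by *Atp5mc2* and *Atp5mc2l1* was lower in Line-A (10.56 ± 0.06) and Line-C (10.51 ± 0.12) than in L-E (10.99 ± 0.11) and S-D (10.87 ± 0.14), by 0.47 between L-E and Line-C (SE 0.08, adjusted p = 0.001254). The ProbeSet shared by *Atp5mc1* and *Atp5mc1l1* was 0.28 below S-D in Line-A (SE 0.11, adjusted p = 0.04962) and 0.37 below it in Line-C (SE 0.11, adjusted p = 0.03599). All *Atp5mc* ProbeSets were named after their values were seen. The steadiest abundant members were *Atp5f1b*, the catalytic subunit (13.03 to 13.19), and *Atp5f1e* (11.02 to 11.15). The inhibitor *Atp5if1*, which blocks ATP hydrolysis when the proton gradient fails, was lower in L-E on ProbeSet 1369588_a_at, at 7.55, 7.41, 7.89 and 7.78 against 8.08, 8.20, 8.00 and 8.16 for S-D. The difference was 0.45 (SE 0.10, adjusted p = 0.005574), and the other pair of *Atp5if1* ProbeSets had means of 2.41 and 3.54, under the limit of expression.

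The comparison of H/W with Line-A, which share the variant *Ahr*, called 26 of the 96 members at 5% FDR, and all 26 were lower in H/W. Over all ProbeSets 6.39% were called, 3.3% lower and 3.09% higher in H/W, and over expressed ones 13.4% were called, 6.86% lower and 6.58% higher. With equal array medians 22 of 23 called members were lower. The 26 comprised 8 of 37 ProbeSets of complex I, 4 of 5 of complex II, 6 of 8 of complex III, 5 of 19 of complex IV and 3 of 18 of complex V. Differences among the 26 ran from 0.18 to 1.54, with a median of 0.35 (1.27-fold), and all 26 were expressed. The median over the 96 members was -0.14, beside -0.03 over all ProbeSets. In the expressed members of complexes II and III the medians were -0.30 and -0.29, and in complex V -0.05, where 10 of 17 were lower and 7 higher. Leaving out single arrays moved the count between 19 and 28, and scan day as a random block gave 16. H/W against Line-C called 14 members (3.89% of all ProbeSets, 8.34% of expressed ones), again all lower in H/W (2.14% of all ProbeSets lower and 1.75% higher), with a median of -0.07 over the 96. With quantile normalization 2 of 15 were higher and with equal array medians 1 of 14, and with scan day as a random block 5 were called.

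Line-A against S-D called 47 members, 43 higher and 4 lower in Line-A. This pair called 37.5% of all ProbeSets, 29.3% higher and 8.17% lower in Line-A, and 32.1% of expressed ones, 16.3% higher and 15.8% lower. Of the 47, 7 were under the limit of expression with differences of at most 0.51, and 40 were expressed, 36 of them higher. The 4 lower in Line-A were *Uqcr11*, *Cox7a2l* and the 2 shared ProbeSets of *Atp5mc1* and *Atp5mc2*. Higher calls numbered 14 of 37 in complex I, 4 of 5 in II, 5 of 8 in III, 11 of 19 in IV and 6 of 18 in V. Those of complex IV include the tissue isoforms *Cox4i2*, *Cox6b2*, *Cox7a1*, *Cox8b* and *Ndufa4l2*, all under the limit of expression, so the complex IV share is not one of expressed members. The median over the 96 members was 0.15, against 0.07 over all ProbeSets, and the median over the expressed members was 0.18 against 0.03 over all expressed ProbeSets. The count was 26 without S-D replicate 1, 28 without S-D replicate 2, 29 without Line-A replicate 4 and 30 without S-D replicate 3, and 12 with scan day as a random block. This pair shares its Line-A arrays with the comparison against H/W.

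Several measures moved with the S-D and Line-A groups. The GAPDH 3′ to 5′ difference was 0.54 to 0.58 in S-D, 0.33 to 0.81 in H/W, 0.38 to 0.50 in Line-C, 0.17 to 0.42 in Line-A and 0.23 to 0.34 in L-E, so S-D lay above Line-A and L-E without overlap. For actin the S-D and Line-A ranges overlapped. The summed level of the 5 stellate cell markers on the array, 4 of them expressed, was 10.54 to 11.38 in S-D and at most 10.12 in any other rat, with *Des* under 4 in every array. The 5 Kupffer cell markers, all expressed, summed to 11.21 to 11.67 in S-D, 10.55 to 10.72 in Line-A, 10.57 to 10.93 in H/W, 10.86 to 11.47 in L-E and 10.92 to 11.30 in Line-C. The 3 endothelial markers, 2 of them expressed and *Pecam1* under 4 in every array, summed to 10.43 to 10.61 in S-D and to at most 10.25 elsewhere. The 4 cholangiocyte markers, 1 of them expressed, summed to 6.63 to 7.10 in S-D and to at most 6.62 elsewhere. Both erythroid markers were expressed and summed to 11.16 to 11.81 in S-D, 12.18 to 13.02 in H/W, 12.25 to 13.19 in L-E, 11.72 to 12.76 in Line-A and 10.58 to 12.31 in Line-C. Hepatocyte markers summed to 17.54 to 17.63 in S-D, 17.64 to 17.71 in Line-A, 17.48 to 17.60 in H/W, 17.56 to 17.62 in L-E and 17.62 to 17.68 in Line-C. Their part in the differences of the members was not tested.

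**Figure D4:**
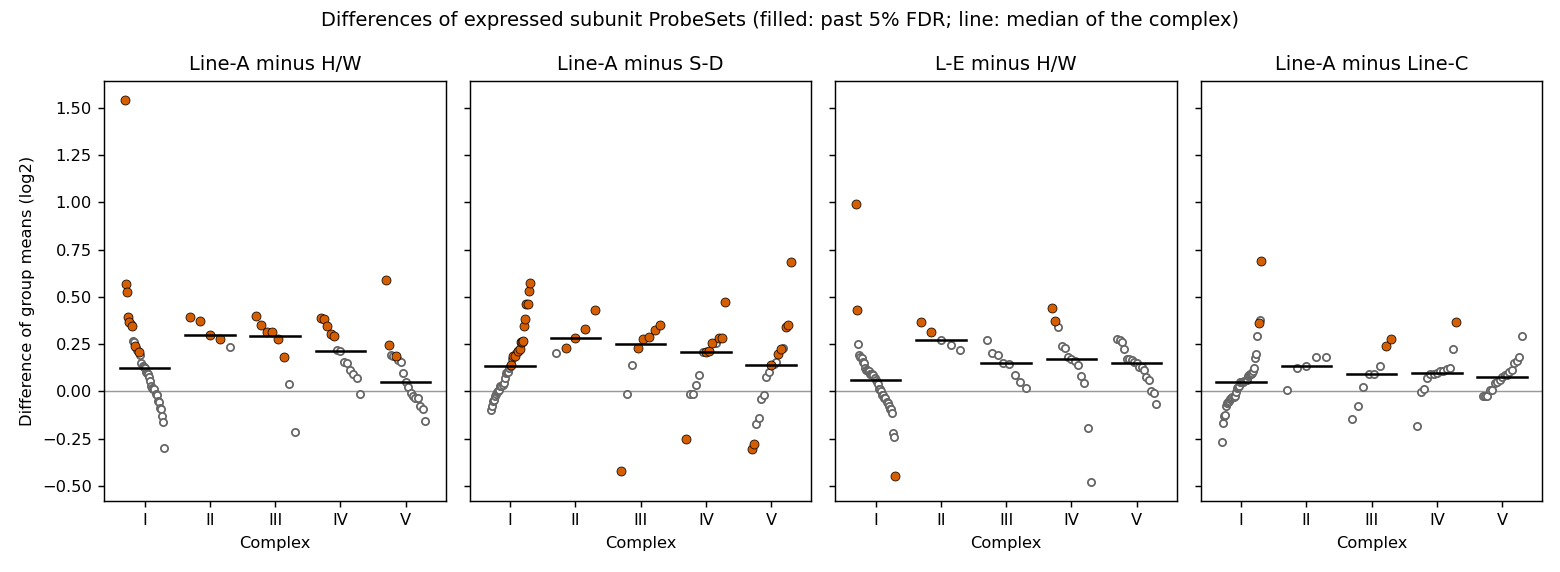
Differences of group means in log2 signal for every expressed subunit ProbeSet, by complex, in 4 comparisons. Filled points passed 5% FDR over all ProbeSets and lines are medians of the complex. In Line-A minus H/W every filled point is above 0, complex II and III medians are near 0.30, and in Line-A minus Line-C 5 points are filled, none of them in complex II or V.

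In the parental strains, H/W against L-E called 8 members, 6 lower and 2 higher in H/W. Of all ProbeSets 3.31% were called, 1.78% lower and 1.53% higher in H/W, and of expressed ones 6.36%. The 6 were *Ndufa10*/*Ndufa10l1*, *Ndufc1*, *Sdha*, *Sdhc*, *Cox4i1* and *Cox8a*. The 2 were *Ndufa8* and an *Atp5if1* ProbeSet under the limit of expression. The median over the expressed members was -0.11, beside 0.01 over all expressed ProbeSets, and 64 of 84 were lower in H/W, including all 5 of complex II and all 8 of complex III. The count depended on H/W replicate 3: without it, 37 members were called, 31 of them lower in H/W. It was 5 without H/W replicate 1 or 4, L-E replicate 3, Line-A replicate 3 or S-D replicate 2, 3 or 4. With scan day as a fixed block the median was -0.09 and 6 were called, of which 4 were shared with the 8 (*Ndufa10*/*Ndufa10l1*, *Ndufc1*, *Cox4i1* and *Cox8a*) and 2 were not (*Ndufb7* and *Uqcrc2*, named after their values were seen). The limma adjusted p under that block was 0.06623 for *Sdha*, 0.1247 for *Sdhc*, 0.05304 for *Ndufa8* and 0.145 for *Atp5if1*. Within the 5 arrays of 1 scan day (2 H/W and 3 L-E) no member was called, 14 had an unadjusted p under 0.05, and the median was again -0.09. Within that day the H/W and L-E difference was -1.22 for *Ndufa10*/*Ndufa10l1*, -0.48 for *Ndufc1*, -0.34 for *Cox4i1*, -0.32 for *Cox8a*, -0.33 for *Sdha*, -0.29 for *Sdhc*, 0.41 for *Ndufa8* and 0.38 for the *Atp5if1* ProbeSet.

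Line-A and Line-C, which differ in the *Ahr* allele and were scanned together, differed in 5 members, all higher in Line-A (1.39% of all ProbeSets called, 0.754% higher and 0.641% lower in Line-A, and 2.89% of expressed ones called). They were *Ndufa10*/*Ndufa10l1*, *Ndufv2*, *Uqcrb*/*Uqcrbl1*, *Uqcrq* and *Cox8a*, with differences of 0.24 to 0.69. Each allele is held by a single line, so the allele and any other difference between the lines cannot be told apart. The median over the expressed members was 0.07, beside less than 0.01 over all expressed ProbeSets, and 61 of 84 were higher in Line-A. Without Line-A replicate 4 or Line-C replicate 2 the count was 1, without Line-A replicate 2 or Line-C replicate 4 it was 2, and without replicate 3 of either line, or with equal array medians, it was 3. In the additive model of strain shares and *Ahr* allele, the *Ahr* coefficient of every member equalled the difference of Line-A and Line-C, so it is the same contrast with another error and takes nothing from the parents. In that model 1 member had an *Ahr* coefficient at 5% FDR (0.659% of all ProbeSets, 1.38% of expressed ones). This was *Cox8a*, at 0.37 higher in Line-A (SE 0.07, 1.29-fold, adjusted p = 0.01224), and with scan day as a random block there were 5 such members.

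For several members the contrast of the parents differed from that of the lines. H/W minus L-E sets a group with the variant *Ahr* against a wild-type one. These are separate strains, so it holds their other strain differences and does not isolate the allele. Line-A minus Line-C sets variant against wild-type *Ahr* in the lines. Each allele is held there by a single line, so this contrast does not isolate the allele either. The difference between these contrasts was tested for each ProbeSet, and 9 members passed at 5% FDR, all of them with a lower value in the parents (2.01% of all ProbeSets called, 1.14% in that direction and 0.873% in the other, and 4.13% of expressed ones called). The 9 were *Ndufa10*/*Ndufa10l1* and *Ndufc1* of complex I, *Sdha* and *Sdhd* (1388294_at) of complex II, *Uqcrb*/*Uqcrbl1* of complex III, *Cox4i1* and *Cox8a* of complex IV, and *Atp5po* and *Atp5mc3* of complex V. The other *Sdhd* ProbeSet, 1371296_at, was not called, at -0.28 (SE 0.12, adjusted p = 0.3257). In *Cox8a* H/W was 0.37 below L-E while Line-A was 0.37 above Line-C, and the difference of -0.74 had an SE of 0.10 (1.67-fold, adjusted p = 0.000321). For *Ndufa10*/*Ndufa10l1* the difference was -1.68 (SE 0.21, adjusted p = 0.000302). In *Cox4i1* H/W was 0.44 below L-E, with Line-A and Line-C at the same mean, and its difference was -0.44 (SE 0.09, adjusted p = 0.01797). Without H/W replicate 3 the count was 15.

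In the remaining pairs, shares of called ProbeSets are given over all ProbeSets, then by direction, then over expressed ones. L-E against Line-A called 26 members, 5 higher and 21 lower in L-E (27.5%, 6.61% higher and 20.9% lower, and 29.7%), and 4 of the 26 were under the limit of expression. L-E against Line-C called 13, 5 higher and 8 lower (15.8%, 4.84% higher and 10.9% lower, and 21.5%), and with equal array medians 3 were higher and 8 lower. L-E against S-D called 15, 12 higher and 3 lower in L-E (9.59%, 4.04% higher and 5.55% lower, and 18.5%). Line-C against S-D called 17, 14 higher and 3 lower in Line-C (12.2%, 6.91% higher and 5.26% lower, and 18.1%). H/W against S-D called 8, 4 in each direction (6.83%, 2.38% higher and 4.45% lower, and 12.8%). The H/W against S-D split changed with scaling, to 7 higher and 3 lower after quantile normalization and 11 higher and 2 lower with equal array medians. Without H/W replicate 3, L-E against Line-C called 32 members, Line-C against S-D 29 and H/W against S-D 27. All pairs share a variance estimate per ProbeSet, so leaving out a rat also changes the counts of pairs that do not hold it. The group differences of those pairs stay the same. L-E against Line-A called 12 without L-E replicate 2 and 13 without Line-A replicate 4, and L-E against Line-C called 6 without L-E replicate 2, 7 without Line-C replicate 3 and 8 without L-E replicate 1. Line-C against S-D called 9 without Line-C replicate 4 and 10 without Line-C replicate 3 or S-D replicate 1. H/W against S-D called 4 without H/W replicate 1 or S-D replicate 2, 3 or 4, and 5 without L-E replicate 1 or 3 or S-D replicate 1. With scan day as a random block, L-E against Line-A called 5, L-E against Line-C 3, L-E against S-D 7, Line-C against S-D 3 and H/W against S-D 2. In all, 59 of the 96 members were called in at least 1 of the 10 pairs and 37 in none, where 53.7% of all ProbeSets and 57.6% of expressed ones were called in at least 1.

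Genes around the chain were taken from lists, with the array covering 8 electron carriers and dehydrogenases that feed coenzyme Q or cytochrome c, 34 assembly factors, 11 genes of coenzyme Q synthesis, 9 regulators, 11 carriers of ATP, phosphate or protons (*Atp5if1* among them) and 14 genes of the citric acid cycle and pyruvate dehydrogenase. Each of these genes was read from its ProbeSet with 1 symbol and the highest mean signal, whereas members count every ProbeSet. Between H/W and Line-A, where 6.39% of all ProbeSets and 13.4% of expressed ones were called, assembly factors had 0 calls higher and 1 lower in H/W. Coenzyme Q synthesis and the regulators had none in either direction. Electron carriers had 1 each way, carriers 0 and 1, and citric acid cycle genes 2 and 1. Past the F-test, which called 4.6% of all ProbeSets and 9.47% of expressed ones, were 2 electron carrier genes, 2 assembly factors, 1 carrier and 1 citric acid cycle gene. The other lists had none. *Sqor*, which oxidises sulfide and passes the electrons to coenzyme Q, was high in the groups with the variant *Ahr*, with 10.48 ± 0.19 (SD, n = 4) for H/W, 10.03 ± 0.16 for Line-A, against 7.01 ± 0.18 in L-E, 7.34 ± 0.19 in Line-C and 8.40 ± 0.20 in S-D. *Etfdh*, which passes electrons from fatty acid oxidation to coenzyme Q, was 11.28 ± 0.23 in L-E and 10.47 ± 0.06 in S-D. *Slc25a5*, an exchanger of ATP and ADP across the inner membrane, had its highest mean in Line-A (12.75 ± 0.07) and its lowest in S-D (12.36 ± 0.02) and H/W (12.42 ± 0.14). *Nubpl*, an assembly factor for iron-sulfur clusters of complex I, was 6.03 ± 0.07 in Line-A and 5.11 ± 0.20 in L-E. *Sdhaf4*, an assembly factor of complex II, had its highest mean in S-D (5.67 ± 0.42). *Idh3g*, of the citric acid cycle, was 8.91 ± 0.09 in Line-A and 7.86 ± 0.17 in S-D. *Cyc1*, the cytochrome c1 of complex III whose symbol falls outside the member rule and which was named after its values were seen, had group means of 10.88 to 11.02 (F-test adjusted p = 0.4405).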

How the data were processed

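Total RNA of 20 rat livers was hybridised by the authors to Affymetrix RAE230A arrays, 1 per rat and not pooled, and pre-processed with GC-RMA (gcrma 2.10.0 in R 2.6.1, per the submitters' processing notes), which corrects background, quantile-normalizes and summarises probes. The deposited values are log2 signals per ProbeSet, used as given. The array scan headers gave scan day, chip lot and operator only. Array signals carry no counts, so precision is limited by the number of arrays.

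ProbeSets were named from GEO's platform annotation: 12789 had 1 symbol, 312 several and 2822 none. Models were fitted to all 15923 ProbeSets with limma 3.58.1 (statmod 1.5.0) in R 4.3.3, with 1 mean per group and empirical Bayes moderation. Benjamini-Hochberg adjustment ran over all ProbeSets, at 0.1% FDR for the F-test and 5% for pairs, the *Ahr* coefficient and the contrast of contrasts. All tests were two-sided. The *Ahr* model had S-D, L-E and H/W shares (0.5 of each parent in both lines) and the allele. W/T came from the balanced variance components. The script was tested on simulated data.

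Named members were those past the F-test, those with the smallest F-test p and the steadiest abundant ones of each complex, the leading ones by p between Line-A and Line-C or H/W and L-E or by *Ahr* coefficient, tissue isoforms, assembly factors, the inhibitor, and genes of the surrounding lists past the F-test. The members and lists were chosen with earlier results of these data known. Alternatives were limma's trend, quantile normalization, equal array medians, expressed ProbeSets only, the replicate number as a block, scan day as a random block and each array left out. Scan day as a fixed block and within 1 day were added after seeing the data.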

Additional observations from a re-analysis of the deposited data

Results flagged for a closer look

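In 7 of 175 sets of 4 rats examined (named members and complex levels), 1 rat lay far from the other 3, and chance flags about 1 in 20 such sets. *Ndufv3* (1368566_a_at) was 9.92 in L-E replicate 4 against 9.55 to 9.60 in the others, and *Cox8a* was 11.63 in H/W replicate 4 against 11.94 to 11.99. *Uqcrc2* was 10.16 in S-D replicate 2 against 10.24 to 10.26, and *Atp5f1b* was 13.12 in the same rat against 13.18 to 13.19. The ProbeSet of *Cox7a2* and *Cox7a2l2* was 11.76 in H/W replicate 3 against 11.44 to 11.49. *Ndufv2* was 10.90 in H/W replicate 2 against 11.06 to 11.08. The complex I level was -0.04 in Line-C replicate 2 against 0.05 to 0.07.

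For 9 members limma's test at 5% FDR separated the contrast of the parental strains from that of the lines. The values of (H/W minus L-E) minus (Line-A minus Line-C) were -1.68 for *Ndufa10*/*Ndufa10l1*, -0.74 for *Cox8a*, -0.72 for *Ndufc1*, -0.58 for *Atp5po* and -0.50 for *Sdha*. They were -0.44 for *Cox4i1*, -0.33 for *Atp5mc3*, -0.40 for *Sdhd* (1388294_at) and -0.36 for *Uqcrb*/*Uqcrbl1*. The parents were scanned on other days than the lines, and no cause was tested.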

How the results depend on the processing

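For the complex levels only Line-A minus H/W and Line-A minus S-D were followed. Neither changed sign in any complex under the alternatives run on it, nor did the 10 differences followed for the members past the F-test. Other differences of complex levels, and the lack of overlap between groups, were not followed. Those 10 stayed past 5% FDR in every alternative run on them. Each was the widest pair of a member chosen by the F-test in the same arrays, so the choice favours this outcome and it is no independent check. Other differences named in the text were not among the 10. With scan day as a random block the F-test called 3 members (10 as reported), H/W against Line-A 16 (26), H/W against Line-C 5 (14), H/W against S-D 2 (8), L-E against Line-A 5 (26), L-E against Line-C 3 (13), L-E against S-D 7 (15), Line-A against S-D 12 (47) and Line-C against S-D 3 (17), while the *Ahr* coefficient called 5 (1). Limma's trend gave 4 members for H/W against S-D, and quantile normalization gave 14 for H/W against L-E. With equal array medians, H/W against S-D called 13 and Line-A against Line-C 3, and the Line-A minus S-D level rose to 0.21 in complex I, 0.20 in III, 0.21 in IV and 0.15 in V. These scalings shifted array medians by at most 0.0987. Within the 5 arrays of 1 scan day, an alternative chosen after seeing the data, 0 members were called between H/W and L-E by limma (14 at an unadjusted p under 0.05). The cause of these changes was not tested, except that the last rests on fewer arrays. Testing expressed ProbeSets only moved no count by over 1.5 times. Replicate numbers did not pair the rats (mean correlation of same-numbered deviations -0.00981, and 3 of 20 arrays closest to their own number), and with the replicate number as a block the F-test called 8 members and no count moved by over 1.5 times. Leaving out each array in turn gave 4 to 15 members for the F-test, 5 to 37 for H/W against L-E, 19 to 28 for H/W against Line-A, 11 to 18 for H/W against Line-C, 4 to 27 for H/W against S-D, 12 to 39 for L-E against Line-A, 6 to 32 for L-E against Line-C, 10 to 19 for L-E against S-D, 1 to 6 for Line-A against Line-C, 26 to 57 for Line-A against S-D, 9 to 29 for Line-C against S-D, 1 to 2 for the *Ahr* coefficient and 7 to 15 for the contrast of contrasts. Splits by direction turned in places: L-E against Line-C went from 5 higher and 8 lower to 6 higher and 3 lower without Line-C replicate 4, and H/W against S-D from 4 and 4 to 10 and 17 without H/W replicate 3 and to 11 and 2 with equal array medians. Leaving out H/W replicate 3 gave the highest count in 11 of these. Pairs without H/W are among them, as all pairs share a variance estimate. The differences of complex levels that were followed moved by less than the spread between rats when single arrays were left out.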
